A study of Mus musculus with 9 samples.

Results

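Polyamine metabolism was examined through 10 genes chosen by name: Odc1, Amd1, Amd2, Srm, Sms, Smox, Sat1, Oaz1, Azin1 and Paox. All 10 were found among the 55416 genes of the table, and all 10 passed the filter on low counts that left 13944 genes for testing. RNA was sequenced from mouse gastrocnemius, the large calf muscle, in 3 groups of 3 libraries: sedentary mice (SED), mice after aerobic exercise training (AET) and mice put through that training while drinking metformin (AET_MET). The trained mice ran on a treadmill for 60 min on 5 days of each week for 8 weeks. Metformin, which is taken by mouth in type II diabetes, was given at 2 mg/mL of drinking water. Strain, sex, age and genotype were not given in the sources used here, and no group with metformin and no training was analysed here. The labels do not tie each library to a mouse of its own, and p-values then measure only the spread among these libraries, which may be technical.

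Polyamines are small positively charged molecules that bind RNA and DNA. Ornithine decarboxylase makes putrescine from ornithine, and 2 aminopropyl transfers, fed by decarboxylated S-adenosylmethionine, turn it into spermidine and then spermine. A return path acetylates or oxidises spermine and spermidine back toward putrescine. The first step is held in check by antizyme, a protein whose synthesis rises with polyamine levels and which sends ornithine decarboxylase to the proteasome, and antizyme inhibitor frees the enzyme by binding antizyme in its place. In skeletal muscle, polyamine enzymes have been studied for their response to loading and disuse.

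Libraries held 15434424 to 25355877 expected counts, which are read numbers estimated by RSEM. Values below are CPM, counts relative to a library's total after TMM scaling, and a gene was called at an edgeR adjusted p under 0.05. All 6 skeletal muscle fiber markers (such as Acta1 and Ckm) stood above 1 CPM in every library. No gene in the lists for other cells was at 0 in all libraries, and the summed levels of these lists varied between and within groups. The 6 slow fiber markers summed to 551 to 678 CPM in SED, 225 to 949 in AET and 30.8 to 505 in AET_MET. The 6 tendon cell markers summed to 311 to 508, 134 to 305 and 90.1 to 212 CPM in the same order. The 6 Schwann cell markers summed to 55.5 to 62.4, 99.4 to 162 and 42.3 to 90.3 CPM, and 2 of them were called higher in AET than in SED. The 6 markers of smooth muscle and pericytes summed to 506 to 595 CPM in SED, 599.7 to 702 in AET and 499 to 596 in AET_MET, with 2 called higher in AET than in SED, and 1 of 6 endothelial markers was called lower in each trained group. Fiber markers summed to 56329 to 61114 CPM in SED, 49505 to 54802 in AET and 51517 to 58179 in AET_MET, with 1 called lower in AET. Adipocyte markers summed to 23.8 to 54.6 CPM in SED, 42.6 to 79.5 in AET and 30.3 to 122 in AET_MET. Macrophage markers summed to 76.9 to 85.1, 68.0 to 117 and 64.8 to 86.6 CPM in the same order. Red blood cell markers summed to 193 to 366, 193 to 221 and 144 to 210 CPM. None of these last 3 lists had a called gene. The part of all these cells in the results below was not tested. In bulk muscle, fewer cells of a type and less RNA per cell cannot be told apart.

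Of the 10 genes, 3 were called in at least 1 comparison: Azin1, Smox and Sat1. Azin1, encoding antizyme inhibitor, was higher in both trained groups than in SED. Smox, encoding spermine oxidase, was lower in AET than in either of the other groups. Sat1, encoding the acetyltransferase that starts the return path, was lower in AET_MET than in SED. The genes of the 2 aminopropyl transfers, Srm and Sms, were called in no comparison.

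In AET against SED, 1 of the 10 genes was called higher, where 5.82% of all tested genes were, and 1 was called lower, where 6.45% were. In AET_MET against SED, 1 was higher and 1 lower, against 2.17% and 2.42% of all genes. In AET_MET against AET, 1 was higher and none lower, against 1.66% and 1.77%. DESeq2 called 2 higher and none lower there, against 3.86% and 3.95% of the 11226 genes to which it gave an adjusted p. In AET against SED DESeq2 called 1 of the 10 higher and 2 lower, where 5.76% and 6.89% of 13387 genes were. In AET_MET against SED it called 2 higher and 1 lower, where 3.01% and 4.79% of 11497 were. With 10 genes, 1 call in a direction is a small count, and the results that follow are read gene by gene. Statements that the libraries of 2 groups did not overlap describe the values only. The share of all tested genes that separate in this way was not counted. The median log2 change of the 10 was -0.082 in AET and 0.047 in AET_MET relative to SED, and it was 0.23 between AET_MET and AET, where the medians of all genes were 0.011, 0.0026 and 0.00072. Both comparisons with SED share its 3 libraries. Scaling by library size alone moved the median of all genes in AET_MET against SED to 0.103 and made 684 of its 860 calls higher ones, against 303 of 640 with TMM. In AET_MET against AET that scaling gave 611 higher among 767 calls, against 231 of 478. In AET against SED upper-quartile scaling gave 980 higher among 1691, against 812 of 1712.

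**Figure D1:**
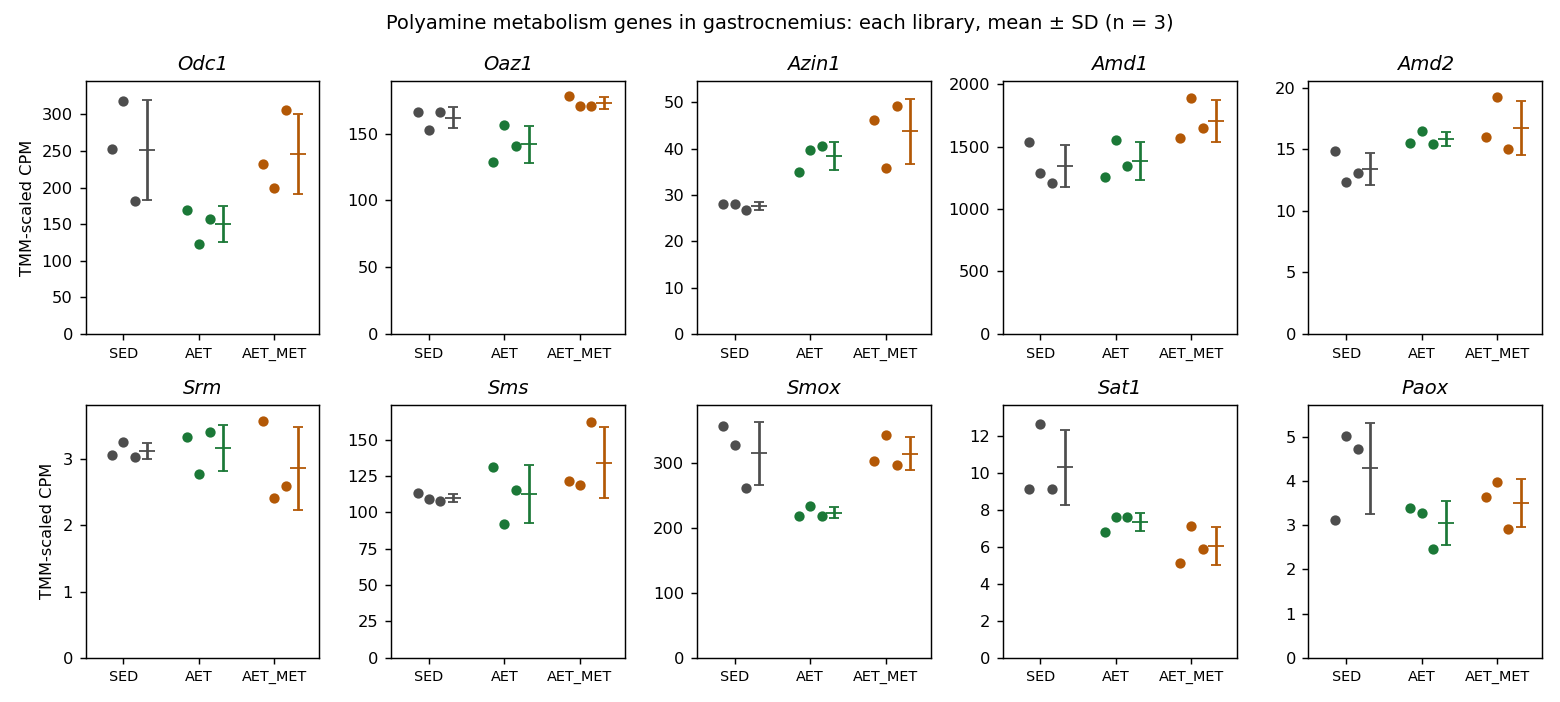
TMM-scaled CPM (linear axis from 0) of the 10 genes in each of the 9 libraries, with the mean ± SD of each group (n = 3). The 3 SED libraries for Azin1 lie between 26.7 and 28.1 CPM, below all 6 libraries of trained mice, and the 3 AET libraries for Smox lie between 218 and 233 CPM, below all others.

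Odc1 encodes ornithine decarboxylase and lies on chromosome 12 at 17544794 to 17551505 (GRCm38). It stood at 253, 318 and 182 CPM in SED replicates 1 to 3, at 169.5, 122 and 157 CPM in AET, and at 232, 199.7 and 306 CPM in AET_MET. All 3 AET libraries were below all others, while SED and AET_MET covered much the same range. Against SED the log2 change in AET was -0.74 ± 0.24 (SE), which missed the threshold (edgeR adjusted p = 0.0863). It was called with DESeq2 (adjusted p = 0.0414) and without SED replicate 3, the lowest SED library (log2 change -0.93, edgeR adjusted p = 0.0340), and reached an adjusted p of 0.202 without SED replicate 2, the highest. AET_MET differed from AET by 0.72 ± 0.24 (edgeR adjusted p = 0.139) and from SED by -0.030 ± 0.24 (edgeR adjusted p = 0.962).

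Oaz1 encodes antizyme 1, the inhibitor of ornithine decarboxylase. Its levels were 166, 153 and 166 CPM in SED, 129, 157 and 141 CPM in AET, and 178, 171 and 170.3 CPM in AET_MET. The AET_MET libraries lay above all others, within a narrow band, and AET overlapped SED. Against SED the log2 change was 0.097 ± 0.08 in AET_MET (edgeR adjusted p = 0.555) and -0.19 ± 0.08 in AET (edgeR adjusted p = 0.159). Neither passed. The difference between AET_MET and AET was 0.28 ± 0.08 and did not pass (edgeR adjusted p = 0.0728). It passed with library sizes alone (adjusted p = 0.0444), with DESeq2 (adjusted p = 0.0246) and without AET replicate 2, the highest of the AET libraries (log2 change 0.36, edgeR adjusted p = 0.0478).

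Azin1 encodes antizyme inhibitor 1, a relative of ornithine decarboxylase that has no decarboxylase activity. The coding sequences of the longest protein-coding transcripts of Odc1 and Azin1 were identical at 811 of 1337 aligned bases (60.7%). Azin1 lies on chromosome 15 at 38487427 to 38519266. It was measured at 28.1, 28.1 and 26.7 CPM in SED, 34.9, 39.6 and 40.6 CPM in AET, and 46.3, 35.8 and 49.2 CPM in AET_MET. The SED libraries were close together and below every trained library, and the 2 trained groups overlapped. The SED mean was 27.6 ± 0.775 CPM (SD, n = 3). Azin1 rose to 38.4 ± 3.06 CPM with training, which is 0.48 ± 0.11 (SE) on the log2 scale (edgeR adjusted p = 0.0140). In AET_MET it rose to 43.7 ± 7.03 CPM, a log2 change of 0.66 ± 0.11 (edgeR adjusted p = 0.00719). AET_MET against AET did not pass, at 0.19 ± 0.11 (edgeR adjusted p = 0.332).

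The AET call for Azin1 was lost without SED replicate 3 (log2 change 0.45, edgeR adjusted p = 0.0522) and without AET replicate 3 (0.43, edgeR adjusted p = 0.0607). The AET_MET call held in all 9 fits that left out 1 library. An antisense neighbour, Gm49077, overlaps Azin1 on the other strand, and it held 0 to 1 counts per library. The strand setting of the counting was not given in the sources used here.

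Ratios of expected counts within a library do not depend on the scaling between libraries and set these 3 genes against each other. The log2 ratio of Azin1 to Oaz1 was -2.57, -2.44 and -2.64 in SED, -1.89, -1.98 and -1.79 in AET, and -1.94, -2.25 and -1.79 in AET_MET. Every trained library was above every SED library. For Odc1 to Azin1 the log2 ratio had a mean of 3.15 ± 0.370 (SD, n = 3) in SED, against 1.95 ± 0.326 for AET and 2.48 ± 0.157 for AET_MET, with all trained libraries below all SED libraries. Odc1 to Oaz1 overlapped between all groups, at 0.13 to 1.06 in SED, -0.35 to 0.40 in AET and 0.23 to 0.85 in AET_MET. These ratios were not tested and are given as values.

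**Figure D2:**
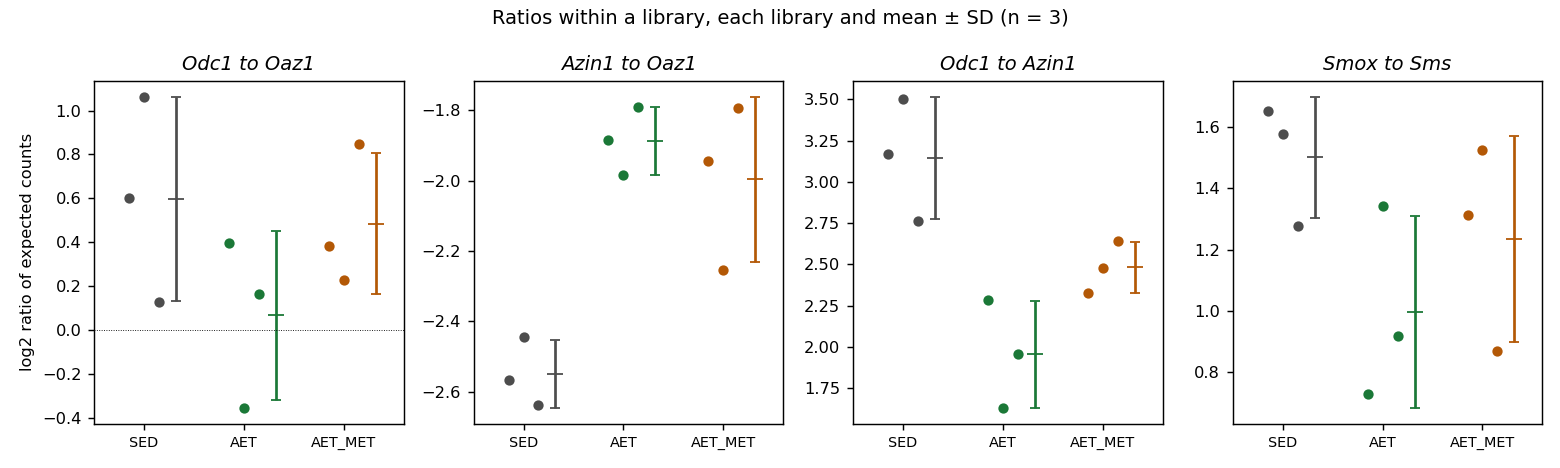
Log2 ratios of expected counts of 2 genes within a library (linear axes of log2 values that do not start at 0), one point per library with the mean ± SD of each group (n = 3). For Azin1 to Oaz1 the SED libraries reach at most -2.44 and the trained libraries lie at -2.25 or above, while for Odc1 to Oaz1 the 3 groups overlap.

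Amd1 and Amd2 encode S-adenosylmethionine decarboxylase, which supplies the aminopropyl donor for spermidine and spermine. Their sequences are shown because they decide how far the 2 rows can be told apart. In GENCODE M21 the longest coding transcript of Amd1 has 8 exons and 3204 bases, and Amd2 has 1 exon and 3218 bases. Amd1 lies on chromosome 10 at 40287458 to 40302186, and Amd2 on chromosome 10 at 35708675 to 35711892. The 1002 aligned coding bases differ at 1 position, G796C, counted from the first base of the start codon with Amd1 first. The 120 coding bases around it, from position 736 to 855, are printed with the differing base in capitals.
Amd1: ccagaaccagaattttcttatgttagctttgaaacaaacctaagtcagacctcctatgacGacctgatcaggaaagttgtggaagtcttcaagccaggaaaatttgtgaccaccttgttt
Amd2: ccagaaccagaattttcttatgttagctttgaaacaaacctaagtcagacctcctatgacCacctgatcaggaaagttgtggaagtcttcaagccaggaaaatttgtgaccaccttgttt
Over the whole transcripts, 3190 of 3204 aligned bases were identical (99.6%). Of the 50-base stretches of Amd2 transcripts, 85.7% also occurred in Amd1, so most reads of that length cannot be assigned to 1 gene by sequence alone.

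Outside the transcript the 2 genes differ. The RefSeq windows on GRCm38.p6, from 250 bases before the start to 50 after it, lie at chr10:40302139-40302438 for Amd1 and chr10:35711842-35712141 for Amd2, both on the minus strand. They are printed to show the contrast between the near-identical transcripts and the sequence before them, with the GC box GGGCGG, on either strand, in capitals.
Amd1: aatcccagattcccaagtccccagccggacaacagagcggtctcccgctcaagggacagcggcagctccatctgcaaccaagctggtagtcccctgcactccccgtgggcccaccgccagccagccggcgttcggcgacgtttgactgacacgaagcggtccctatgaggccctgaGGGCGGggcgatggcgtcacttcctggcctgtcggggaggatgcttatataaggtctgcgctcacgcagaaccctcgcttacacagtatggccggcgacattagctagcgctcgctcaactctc
Amd2: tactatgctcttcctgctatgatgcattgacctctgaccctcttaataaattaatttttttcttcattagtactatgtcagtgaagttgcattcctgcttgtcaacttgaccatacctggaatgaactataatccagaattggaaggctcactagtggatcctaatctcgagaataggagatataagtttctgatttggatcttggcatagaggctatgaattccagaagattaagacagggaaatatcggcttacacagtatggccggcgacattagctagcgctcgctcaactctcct
In the 50 bases after the start, 48 aligned bases were all identical once the starts were shifted, and in the 250 bases before it 102 of 239 aligned bases were. GC content was 63.0% for Amd1 and 40.7% for Amd2. The Amd1 window held 1 GC box and the Amd2 window 0, where 35.7% of all 32851 RefSeq windows held at least 1.

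Amd1 levels were 1536, 1288 and 1209 CPM in SED, 1256, 1556 and 1345 CPM in AET, and 1569.9, 1892 and 1651 CPM in AET_MET. All AET_MET libraries were above all others, and SED and AET overlapped. AET_MET against SED gave a log2 change of 0.34 ± 0.11, which did not pass (edgeR adjusted p = 0.111; DESeq2 adjusted p = 0.0497). AET_MET against AET gave 0.30 ± 0.11 (edgeR adjusted p = 0.152), and AET against SED 0.044 ± 0.11 (edgeR adjusted p = 0.835).

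The Amd2 row stood at 14.8, 12.3 and 13.1 CPM in SED, 15.5, 16.5 and 15.5 CPM in AET, and 16.0, 19.2 and 15.04 CPM in AET_MET. Both trained groups were above SED and overlapped each other, and no comparison passed (edgeR adjusted p = 0.173 for AET and 0.117 for AET_MET relative to SED, and 0.689 between the trained groups). Amd2 took 0.903% to 1.22% of the counts of Amd1 and Amd2 together, a share assigned by RSEM. The 5 Amd pseudogenes in the table together took 636 to 1387 counts per library, more than the 259.9 to 422 counts of Amd2. With Amd1 and Amd2 summed into 1 row, the log2 changes were 0.046 ± 0.11, 0.34 ± 0.11 and 0.30 ± 0.11 in the same order, and none passed (edgeR adjusted p = 0.827, 0.110 and 0.153).

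Srm encodes spermidine synthase and Sms spermine synthase, the enzymes of the 2 aminopropyl transfers. Srm was scarce, at 52 to 84 counts per library, and stood at 3.07, 3.26 and 3.03 CPM in SED, 3.341, 2.77 and 3.41 CPM in AET, and 3.58, 2.41 and 2.604 CPM in AET_MET. Its groups overlapped, with log2 changes of 0.022 ± 0.18 in AET and -0.14 ± 0.19 in AET_MET against SED (edgeR adjusted p = 0.951 and 0.730). Sms stood at 113, 109 and 108 CPM in SED, 131, 91.7 and 116 CPM in AET, and 121, 119 and 162 CPM in AET_MET. SED was tight, AET spread on both sides of it, and AET_MET lay above SED with 1 library far above the other 2. The log2 changes of Sms were 0.036 ± 0.14 in AET and 0.29 ± 0.14 in AET_MET against SED (edgeR adjusted p = 0.894 and 0.281).

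Smox encodes spermine oxidase, which turns spermine directly into spermidine and releases hydrogen peroxide. It lies on chromosome 2 at 131491496 to 131525922, and no 50-base stretch of its transcripts occurred in another gene. The levels were 356, 326 and 260.5 CPM in SED, 218, 233 and 219 CPM in AET, and 302, 343 and 296 CPM in AET_MET. AET was low and tight, below every library of the other groups, and SED and AET_MET overlapped. From 314 ± 48.8 CPM in SED, Smox fell to 223 ± 8.40 CPM in AET (SD over 3 libraries), which is -0.49 ± 0.11 as a log2 change (edgeR adjusted p = 0.0114). This call held in each of the 9 fits without 1 library.

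Trained mice given metformin had 314 ± 25.5 CPM of Smox, and AET_MET was higher than AET by 0.49 ± 0.11 on the log2 scale (edgeR adjusted p = 0.0300). Against SED the change in AET_MET was -0.0030 ± 0.11 (edgeR adjusted p = 0.992). The call of AET_MET against AET was lost without any 1 of the 6 libraries of these 2 groups, with log2 changes of 0.41 to 0.53 and edgeR adjusted p of 0.0527 (without AET replicate 2) to 0.114 (without AET replicate 3). It held under all 10 other settings, with edgeR or DESeq2 adjusted p of 0.000924 to 0.0354. These settings reuse the same libraries, and the one that summed Amd1 and Amd2 left the Smox counts as they were.

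Odc1 and Smox shared the pattern of low AET libraries, and their RefSeq windows are printed for that reason, at chr12:17544623-17544922 and chr2:131491612-131491911, both on the plus strand of GRCm38.p6. Capitals mark the GC box GGGCGG on either strand.
Odc1: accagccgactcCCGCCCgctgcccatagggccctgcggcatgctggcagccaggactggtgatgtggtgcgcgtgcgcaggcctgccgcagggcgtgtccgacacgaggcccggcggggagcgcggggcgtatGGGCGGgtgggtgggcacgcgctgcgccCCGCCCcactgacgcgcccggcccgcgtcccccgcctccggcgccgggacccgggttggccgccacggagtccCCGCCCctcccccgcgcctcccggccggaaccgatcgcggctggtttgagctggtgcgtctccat
Smox: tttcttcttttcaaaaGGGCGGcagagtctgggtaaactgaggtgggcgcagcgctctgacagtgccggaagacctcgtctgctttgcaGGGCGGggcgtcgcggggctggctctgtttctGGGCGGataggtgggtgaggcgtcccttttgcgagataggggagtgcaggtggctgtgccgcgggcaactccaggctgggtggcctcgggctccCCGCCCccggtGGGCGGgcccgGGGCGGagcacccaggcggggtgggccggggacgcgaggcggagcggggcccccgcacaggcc
The Odc1 window held 4 GC boxes and the Smox window 6. GC boxes were not particular to these genes, and 35.7% of all windows held at least 1. That share is not for windows with as many boxes as these. GC content was 78.0% for the Odc1 window and 71.0% for the Smox window. Among the other matched genes, the Sms windows held 0 and 4 and the Paox windows 3 each. The Sat1 window held 2, the Amd1 window 1, and those of Oaz1 and Amd2 held 0. Neither the Odc1 nor the Smox window held the E-box CACGTG, the palindrome that Myc and Max bind, which occurred in 7.15% of all windows. A Sms window held 1. The windows end 50 bases after the start, and sequence further into the genes was not searched. A RefSeq window was matched for 8 of the 10 genes, that is, for all but Azin1 and Srm. These matches describe the letters in the windows only.

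Sat1 encodes the acetyltransferase that marks spermidine and spermine for oxidation or export. It stood at 9.12, 12.6 and 9.14 CPM in SED, 6.78, 7.61 and 7.58 CPM in AET, and 5.12, 7.13 and 5.88 CPM in AET_MET. All trained libraries were below all SED libraries, and the trained groups overlapped. In AET_MET Sat1 fell to 6.04 ± 1.02 CPM from 10.3 ± 2.03 CPM in SED (SD over 3 libraries), or by a log2 change of -0.76 ± 0.16 (edgeR adjusted p = 0.0168). The AET change of -0.49 ± 0.15 lay just outside the threshold (edgeR adjusted p = 0.0523), and without a filter on low counts it passed (adjusted p = 0.0177). It shrank to -0.32 without SED replicate 2 (edgeR adjusted p = 0.211), and with library sizes alone the adjusted p was 0.0908. AET_MET against AET gave -0.27 ± 0.16 (edgeR adjusted p = 0.339).

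The AET_MET call for Sat1 rested on 83 to 287 counts per library. It was lost without SED replicate 2, the highest library (log2 change -0.59, edgeR adjusted p = 0.0704), without AET_MET replicate 1 (-0.67, edgeR adjusted p = 0.0837) and without AET_MET replicate 3 (-0.75, edgeR adjusted p = 0.0931).

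Paox encodes the peroxisomal oxidase that acts on acetylated polyamines. It had 59.3 to 114 counts per library and stood at 3.12, 5.02 and 4.74 CPM in SED, 3.39, 3.28 and 2.47 CPM in AET, and 3.64, 3.98 and 2.92 CPM in AET_MET. The groups overlapped, and the log2 changes against SED were -0.50 ± 0.21 in AET and -0.29 ± 0.21 in AET_MET (edgeR adjusted p = 0.137 and 0.468). Paox overlaps Echs1 on the opposite strand, which had 666 to 1263 counts, and 28.5% of its 50-base stretches occur in other genes, so its counts are uncertain.

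**Figure D3:**
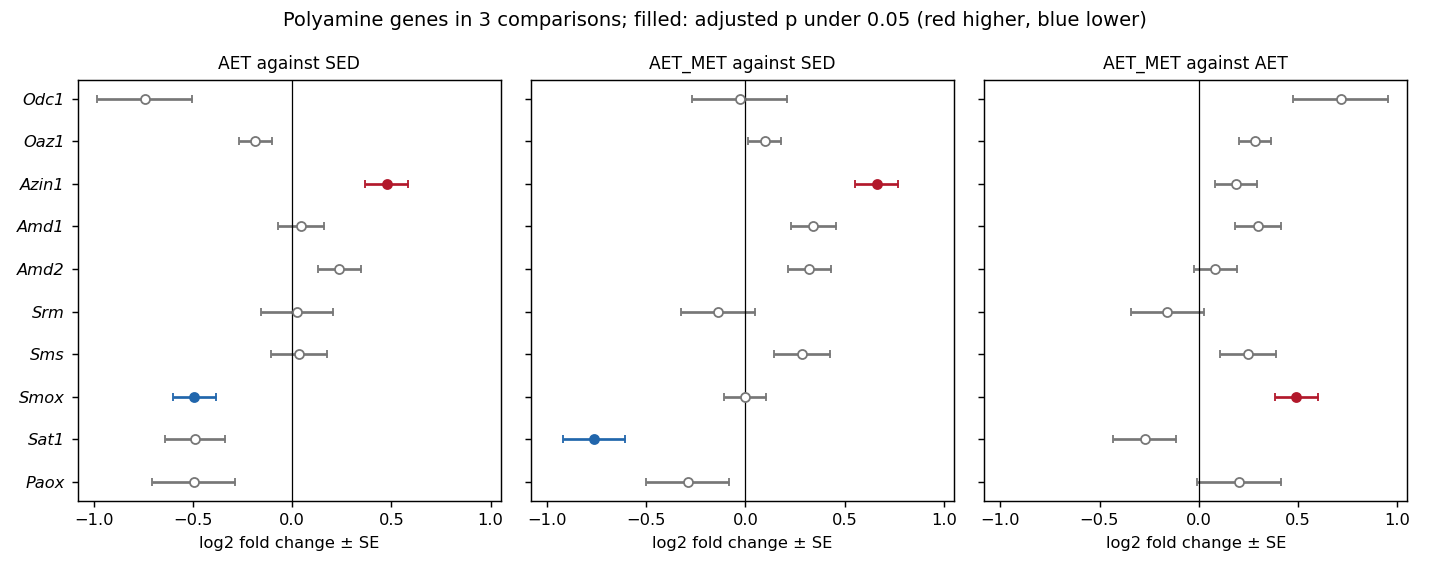
Log2 fold changes ± SE of the 10 genes in the 3 comparisons from 1 edgeR fit of all 9 libraries; filled points passed an adjusted p under 0.05, red for higher and blue for lower. Azin1 passes in both comparisons with SED (0.48 and 0.66), and Smox passes in AET against SED (-0.49) and in AET_MET against AET (0.49).

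Per kilobase of the longest protein-coding transcript, the SED level fell from Amd1 at 419.6 ± 53.3 CPM per kb to Paox at 0.922 ± 0.220 (SD, n = 3). Oaz1 at 151 ± 7.33, Smox at 137 ± 21.2 and Odc1 at 114 ± 31.0 CPM per kb came next after Amd1, and neighbours among these 3 overlapped. Sms followed at 29.6 ± 0.782, Sat1 at 8.86 ± 1.74, Azin1 at 5.67 ± 0.159, Amd2 at 4.17 ± 0.400 and Srm at 2.33 ± 0.0913 CPM per kb, with no overlap between neighbours. In the trained groups Azin1 stood above Sat1, at 7.88 ± 0.629 against 6.30 ± 0.408 CPM per kb in AET and 8.98 ± 1.44 against 5.20 ± 0.875 in AET_MET. That change of order depends on the length used. Per kilobase of all exons joined, Azin1 was above Sat1 in SED too, at 4.41 against 3.71 CPM per kb.

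**Figure D4:**
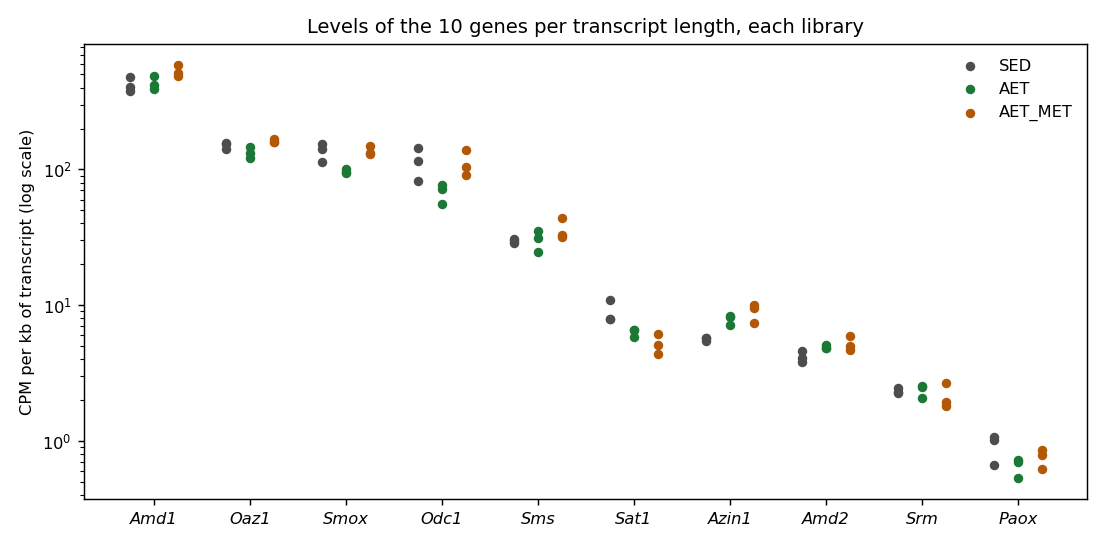
CPM per kilobase of the longest protein-coding transcript (log axis) for the 10 genes, 1 point per library and 1 colour per group, ordered by the SED mean. Amd1 lies highest (377 to 479 CPM per kb in SED) and Paox lowest (0.670 to 1.08 in SED), and Sat1 and Azin1 change places between SED and the trained groups.

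A list of 44 further genes around the pathway was set beside the 10, and 33 passed the filter. The 11 that did not reached at most 16 counts in a library, among them Arg1 and Arg2, encoding the arginases that make ornithine, at up to 7 and 1 counts. In AET against SED 1 of the 33 was higher and 4 were lower, with a median log2 change of -0.0997. In AET_MET against SED 1 was higher and 3 lower (median -0.059), a balance that turned to 3 higher and 1 lower with library sizes alone. In AET_MET against AET 1 was higher and none lower (median 0.064). DESeq2 called 1 higher and 5 lower, 1 and 3, and 2 and none in the same order. At an unadjusted edgeR p under 0.05, 2 were higher and 10 lower in AET against SED. At that threshold 3 were higher and 8 lower in AET_MET against SED, and 5 and 1 in AET_MET against AET. The called counts and medians stand beside the shares of all genes and the medians given above. The unadjusted counts have no such share beside them, so no lean of the list is read from them.

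Mat2a encodes the catalytic subunit of the enzyme that makes S-adenosylmethionine, the substrate of the Amd1 product, and was the one gene of the list called in all 3 comparisons. It stood at 61.7, 78.8 and 73.9 CPM in SED, 85.9, 109.8 and 96.5 CPM in AET, and 129, 130.2 and 151 CPM in AET_MET. The 3 groups did not overlap, with SED lowest and AET_MET highest. Mat2a rose by 0.45 ± 0.11 on the log2 scale in AET (edgeR adjusted p = 0.0217) and by 0.94 ± 0.11 in AET_MET against SED (edgeR adjusted p = 0.00155). It was higher in AET_MET than in AET by 0.49 ± 0.11 (edgeR adjusted p = 0.0336). The AET call was lost without SED replicate 1 or 3 or AET replicate 2 or 3 (edgeR adjusted p = 0.0857, 0.0530, 0.0797 and 0.0644). The call of AET_MET against AET was lost without AET replicate 1 or 3 or any AET_MET replicate (edgeR adjusted p = 0.103, 0.118, 0.0736, 0.0796 and 0.157). The other 7 genes of the methionine cycle and salvage list were called in no comparison by edgeR.

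Among genes of ornithine and arginine supply, Oat, encoding ornithine aminotransferase, stood at 169.7 ± 4.47 CPM (SD, n = 3) in SED and fell to 116 ± 7.45 CPM with AET (log2 change -0.55 ± 0.08, edgeR adjusted p = 0.00129). In AET_MET it fell to 135 ± 10.9 CPM (-0.33 ± 0.08, edgeR adjusted p = 0.0397), a call kept in 2 of the 9 fits without 1 library, with adjusted p up to 0.161 without AET_MET replicate 1. It was also lost under upper-quartile scaling (adjusted p = 0.0505) and library sizes alone (adjusted p = 0.163). Of the 8 tested genes of the separate list for polyamine and amine transport, edgeR called 1 lower in AET against SED. It called none in the other comparisons. The called gene was Slc7a2, encoding a cationic amino acid transporter that carries arginine and ornithine. Slc7a2 stood at 114, 155 and 75.4 CPM in SED, 50.3, 45.8 and 46.3 CPM in AET, and 91.5, 73.6 and 85.6 CPM in AET_MET. AET was below all other libraries. Slc7a2 fell in AET by 1.28 ± 0.24 on the log2 scale (edgeR adjusted p = 0.0144), a call lost without AET replicate 1, 2 or 3 (edgeR adjusted p = 0.0638, 0.0528 and 0.0575). AET_MET against AET gave 0.81 ± 0.24 (edgeR adjusted p = 0.102), which passed with DESeq2 (adjusted p = 0.00138), without the SED libraries (adjusted p = 0.00383) and without SED replicate 2 or 3 (edgeR adjusted p = 0.0308 and 0.0129). AET_MET against SED, at -0.46 ± 0.23 (edgeR adjusted p = 0.313), passed without SED replicate 3 (log2 change -0.69, edgeR adjusted p = 0.0269).

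Of the regulators linked to these genes, Myc, a transcription factor known to activate Odc1, stood at 3.58 ± 0.333 CPM (SD, n = 3) in SED and fell to 2.00 ± 0.100 CPM with AET (log2 change -0.84 ± 0.18, edgeR adjusted p = 0.0104). Its change in AET_MET was -0.70 ± 0.18 (edgeR adjusted p = 0.0449). That call was kept in 1 of the 9 fits without 1 library, the one without AET_MET replicate 2, reached an adjusted p of 0.181 without AET_MET replicate 3, and was also lost in 6 of 9 other settings: DESeq2, the replicate block, library sizes alone, upper-quartile scaling, no filter, and the fit of 2 groups only (adjusted p = 0.0572, 0.0657, 0.0859, 0.0504, 0.0550 and 0.0650). Nfe2l2, encoding the antioxidant regulator NRF2, fell by 0.60 ± 0.10 in AET and by 0.55 ± 0.10 in AET_MET against SED (edgeR adjusted p = 0.00237 and 0.0104), and the AET_MET call was lost without AET_MET replicate 3 (edgeR adjusted p = 0.0639).

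None of the 4 tested genes of hypusine formation, the modification of the translation factor eIF5A that uses spermidine, was called in any comparison by edgeR or DESeq2. At an unadjusted edgeR p under 0.05, 1 of the 4, Eif5a, was lower in each trained group against SED and 0 differed between the trained groups. Eif5a was not called, with edgeR adjusted p of 0.0812 in AET and 0.204 in AET_MET against SED. No share of all genes at the unadjusted threshold is given here, so no result about the list is read from these counts. The log2 changes of the 4 genes ran from -0.21 to -0.065 in AET and from -0.17 to 0.12 in AET_MET against SED. The 3 tested genes for further antizymes, acetylation and oxidation were not called either, with 0 at an unadjusted p under 0.05 in each comparison, at -0.043 to 0.10 in AET and -0.13 to 0.28 in AET_MET against SED. Among them Oaz2, encoding the second antizyme, changed by -0.043 ± 0.07 and 0.021 ± 0.07 in these comparisons.

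**Figure D5:**
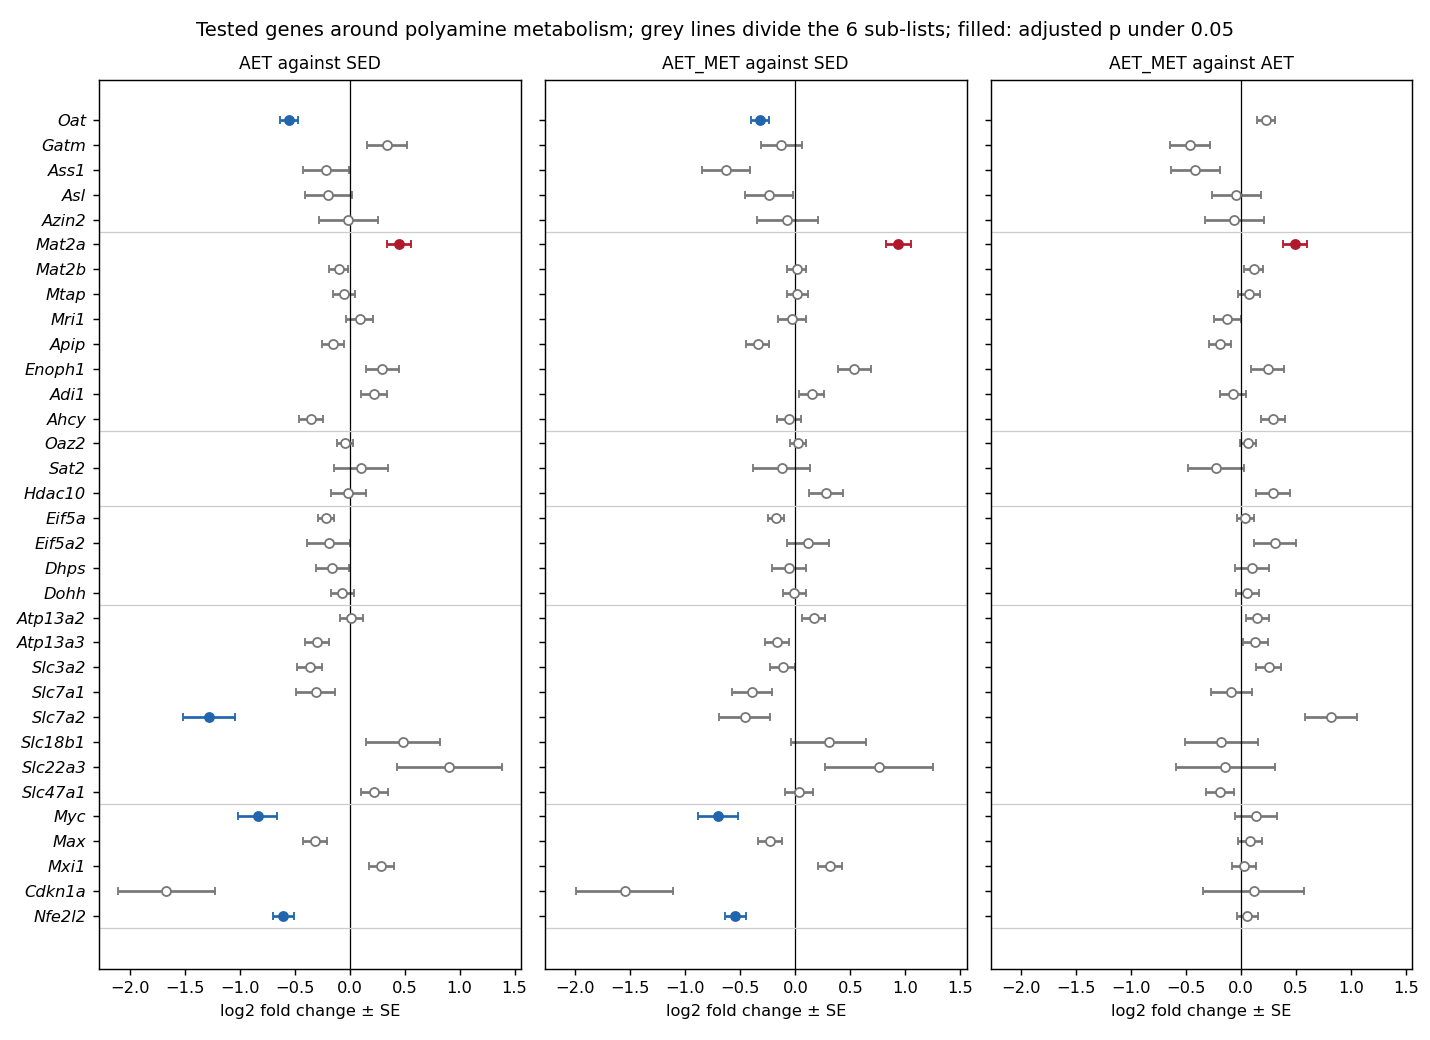
Log2 fold changes ± SE of the 33 tested genes around polyamine metabolism in the 3 comparisons, divided by grey lines into 6 sub-lists from ornithine supply (top) to regulators (bottom); filled points passed an adjusted p under 0.05, red for higher and blue for lower. Mat2a passes in all 3 panels, with the highest value in AET_MET against SED (0.94).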

How the data were processed

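Sequencing libraries were made from gastrocnemius RNA with a SMARTER mRNA kit, per the labels' protocols. The authors deposited 1 table of RSEM expected counts per gene, not normalized, in which every library has its own column. The submitters' processing notes name GRCm38, RSEM 1.3.0, STAR 2.5.3a and edgeR 3.34.0, with no role for any of them. Annotation release, filters, read length and strand use were not given in the sources used here. Columns were matched to samples by library name. Expected counts were rounded and 13944 of 55416 genes kept by filterByExpr, and 1 model of all 9 libraries (6 residual degrees of freedom) was fitted with edgeR 4.0.16 in R 4.3.3 (TMM, robust quasi-likelihood test, Benjamini-Hochberg adjustment over all tested genes). The script was tested on simulated data. SE is the log2 change divided by the square root of F. DESeq2 1.42.0, other scalings and filters, fits without 1 library and a replicate block were alternatives.

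GENCODE M21 gave symbols to 52083 identifiers, coordinates and transcripts; promoter windows are from RefSeq. The 10 genes and the lists were chosen with earlier results of these data known. All 10 are named, and of the 44 further genes those called in at least 1 comparison. A gene planned for that list is not reported here. Others are named as examples or for what their counts show, after their values were seen. Within groups no library pair was close enough to be 1 library deposited again (chi-square per degree of freedom at least 14.7). The libraries of a group have a common stem in their names, and a batch along those stems cannot be told apart from the groups. RSEM divides reads between near-identical copies, which makes such genes less certain: 85.7% of 50-base stretches recur in other genes for Amd2, 78.1% for Amd1, 28.5% for Paox, 24.3% for Odc1, 21.0% for Oaz1, 17.5% for Sms and under 5% for the other 4. Depth was 15434424 to 25355877 counts per library.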

Additional observations from a re-analysis of the deposited data

How the results depend on the processing

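Over the 9 fits without 1 library, 1 to 2 of the 10 genes were called in AET against SED, 1 to 2 in AET_MET against SED, and 0 to 1 in AET_MET against AET. For the 33 further genes these ranges were 3 to 7, 1 to 4 and 0 to 2, and for all tested genes 934 to 1509, 141 to 655 and 23 to 461. The called genes were not always the same: without SED replicate 3, AET against SED had 2 lower (Smox and Odc1) and 0 higher. In AET_MET against AET, library sizes alone called 2 of the 10, DESeq2 called 2 of the 10 and 2 of the 33, and the fit of 2 groups only called 2 of the 33. Upper-quartile scaling called 2 of the 33 in AET_MET against SED. In a comparison where it was called, no named gene turned its direction under any setting run. Counts were lowest for Srm, Paox and Sat1; what depth limits was not tested.

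The labels number replicates 1 to 3 in each group without saying that numbers pair samples, so the numbers were not taken as pairs. Deviations of same-numbered libraries from their group means correlated at -0.051 to 0.18. Between SED and AET each replicate correlated best with its own number, as did replicate 1 between SED and AET_MET. With the replicate number as a block, 3 of the 10 genes were called in AET against SED (Sat1 added, adjusted p = 0.0293), and 2 and 1 in the other comparisons. Over all genes, calls went from 1712 to 1530, 640 to 535 and 478 to 358.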

Other observations

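For Azin1, which had the smallest p of the 10 genes in any comparison, the tested genes with the most similar levels over the 9 libraries were Zfp667 (Pearson r = 0.979 in log2 CPM), Ankrd27 (0.971), Tia1 (0.967), Cyb5b (0.959) and Kcnc1 (0.956). Ankrd27, for example, stood at 8.98 to 10.2 CPM in SED, 11.98 to 13.7 in AET and 11.2 to 15.2 in AET_MET. These genes were picked as the 5 highest of all tested genes, and the points share libraries and group differences, so the values are a description.

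Among the 10 genes, the pair with the highest correlation over the 9 libraries was Amd1 and Amd2 (r = 0.772), which share reads, followed by Odc1 and Smox (0.745) and Smox and Oaz1 (0.711). The lowest was Sat1 and Azin1 (-0.848), where Sat1 was highest and Azin1 lowest in SED. The 9 libraries hold 3 groups, so these values mix differences between and within groups.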
